A study of Mus musculus with 8 samples.

Results

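Narrow peaks in internal exons are the m6A peaks that lie in an exon with at least 1 exon before it and 1 after it in the same transcript and that span at most 500 bp of genome. They were chosen by 3 properties that the authors' peak lists give for each peak: an annotation that names an exon outside the untranslated regions, its number among the transcript's exons, and its width. Of 20732 peaks in the series, 5564 are of this kind. The study examined RAW264.7, a transformed mouse macrophage line grown in culture, by immunoprecipitating RNA fragments with an antibody to N6-methyladenosine and sequencing them (MeRIP-seq). Control cells had no treatment. The other cells received TBP, TCP or TIP, abbreviations that the labels do not spell out, each at 100 µM for 24 h. Every condition has 1 immunoprecipitated library, whose peak list was used, and 1 input library, which was not analysed here. With 1 library per condition no test between conditions was possible, and each 95% interval (exact Clopper-Pearson unless another is named) covers counting error only. Coordinates are on GRCm38 (mm10).

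N6-methyladenosine (m6A) is placed on messenger RNA in the nucleus by a complex built around Mettl3 and Mettl14, and it is read by YTH-domain proteins that steer splicing, export, translation and decay. It is known to be densest near stop codons and in the 3′ untranslated region. Inside transcripts it is found mainly in unusually long internal exons, while short exons next to splice junctions are largely spared, because the exon junction complex keeps the methyltransferase away. A peak in an internal exon therefore reports on the body of a transcript, mostly its coding part.

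The control list held 1138 of these peaks in 667 host genes, the TBP list 1645 in 866, the TCP list 1942 in 989 and the TIP list 839 in 517. The ratios to control were 1.45 for TBP, 1.71 for TCP and 0.737 for TIP. Over all peaks of any kind they were 1.42, 1.58 and 0.685, the same order as the length of the lists. With every list cut to its 3034 best-scored peaks the order turned: control had 736, TBP 754, TCP 801 and TIP 839 of these peaks, which is 1.14 times control for TIP. They made up 25.7% (24.4 to 27.0) of the control list, 26.2% (25.1 to 27.3) of TBP, 27.8% (26.8 to 28.9) of TCP and 27.7% (26.1 to 29.3) of TIP. Among narrow exon peaks, the share in internal exons lay between 58.1% in control and 60.4% in TCP. Their median width was 50 bp in each list. The widest peaks kept were 455 bp in control, 383 with TBP, 487 with TCP and 492 with TIP, and the narrowest left out were 521, 596, 504 and 535 bp. Between 13 and 35 peaks per list had a width that is no multiple of 25 bp, the step of nearly all widths. Whether those cross a splice junction was not tested.

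The lists hold positions and scores without counts of reads. The depth is unknown, and a peak missing from a list shows only that none was called there. Each peak has 1 score from the authors with no stated scale and a different lowest value per list, so peaks are compared by rank within their list, where rank 1 is the highest score and tied peaks share the best rank. Ties are common in TIP, where 301 peaks share rank 17 of 3034. Host genes were read from the exon annotation. The nearest gene that the lists also name was another gene for 9.73% to 10.3% of these peaks. Peaks lay on the strand of their host gene in 1114 of 1118 cases with a known strand in control, 1616 of 1622 with TBP, 1904 of 1910 with TCP and 822 of 825 with TIP. Of the 19 that did not, 10 were assigned to Pus3. Exon numbers rose with position in 156 of 156 plus-strand transcripts with peaks in several exons and fell in 159 of 160 minus-strand ones, so they count from the 5′ end. Of 14 macrophage markers, 11 had a peak of any class in at least 1 list, and 4 (Csf1r, Cd68, Ptprc and Cx3cr1) had a narrow internal-exon peak. The markers Adgre1, Itgam and Mertk had no peak in any list. None of 16 markers of other cell types had a peak.

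Within their transcripts the peaks leaned toward the 5′ side. Counted over peaks, host transcripts had a median of 14 exons in control and 15 in each compound list. With each host gene counted once the median was 13 in control, TBP and TCP and 14 in TIP. The median peak lay in exon 5 in control and exon 6 in the others. Relative position was set at 0 for the second exon and 1 for the exon before the last. Its median was 0.375 in control and TBP and 0.400 in TCP and TIP. The second exon alone held 258 of 1138 control peaks, 22.7% (20.3 to 25.2), where an even spread over the internal exons of the same transcripts would give 14.0%. The share was 22.4% in TBP against 13.3%, 22.0% in TCP against 13.6%, and 19.4% (16.8 to 22.3) in TIP against 12.7%. The exon before the last held less than an even spread in each list, with 11.2% (9.47 to 13.2) for control, 11.1% for TBP, 11.6% for TCP and 10.6% (8.61 to 12.9) for TIP. The even share lay inside the interval of TIP and outside those of the other lists. With each host gene counted once it lay inside all 4 intervals, at 15.7% for control beside 14.1% (11.5 to 17.0), so the shortfall did not hold there. Limited to transcripts with at least 10 exons, the second exon held 15.4% of control peaks against 6.22% and 11.8% of TIP peaks against 6.14%. The even spread counts exons, not bases, since exon lengths were not used here.

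**Figure D1:**
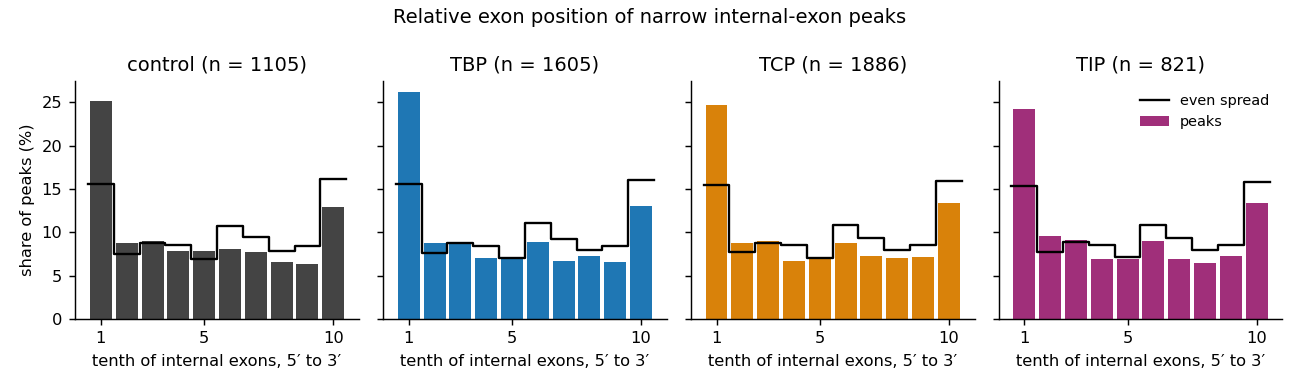
Share of narrow internal-exon peaks (y axis, percent) in 10 equal bins of relative position among the internal exons from 5′ to 3′ (x axis), with 1 panel per list and transcripts of more than 3 exons. Bars are peaks and the black line is an even spread over the same transcripts; the 5′-most bin stands above the line in each panel, at 25.2% against 15.6% in control and 24.2% against 15.3% in TIP.

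Many of the peaks shared an exon. The 5564 peaks fell in 1950 exons, and the 606 exons with at least 2 separate regions held 65.5% of the peaks. The distance between the outer ends of the peaks assigned to 1 exon was used as a rough guide to that exon's length. It can fall short of the length, or exceed it where an outer peak reaches past the exon. It was over 1000 bp in 110 exons of 104 genes, and these exons held 25.1% of all the peaks: 26.3% for control, 26.1% for TBP, 23.4% for TCP and 25.5% for TIP. The share was thus similar in the 4 lists, with TCP lowest.

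The exon with the most regions was exon 12 of 14 of Mki67, which encodes the Ki-67 protein that coats mitotic chromosomes. Its peaks reached from 135694240 to 135701039 on the minus strand of chromosome 7, a span of 6800 bp. Control had 22 peaks there, TBP 18, TCP 28 and TIP 17. Merged across lists they formed 41 regions, of which 7 held a peak of every list. Control peaks covered 1150 bp of it (16.9%), TBP peaks 1625 bp (23.9%), TCP peaks 1700 bp and TIP peaks 1250 bp (18.4%), and together they covered 52.6%. TCP thus covered the largest share of this span, and the lists marked partly different stretches.

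Son exon 3 of 12 came next. Son is a scaffold of nuclear speckles that supports splicing, and all its narrow internal-exon peaks lay in this exon, on chromosome 16 between 91654740 and 91659864. It had 14 peaks in control, 22 with TBP, 11 with TCP and 10 with TIP over a span of 5125 bp, in 31 regions of which 3 were held by all 4 lists. Tcf20 exon 2 of 5, in the gene of a transcriptional coregulator, spanned 5425 bp with 4 control, 13 TBP, 8 TCP and 4 TIP peaks. Macf1 exon 36 of 98, in the gene of a giant linker of actin and microtubules, spanned 4375 bp with 5, 9, 8 and 4. Ranbp2 exon 20 of 29, in the gene of the nucleoporin of the cytoplasmic filaments, had almost level counts of 9, 9, 8 and 8 over 4100 bp. Srrm2 exon 11 of 15, in the gene of a splicing coactivator of nuclear speckles, had 10, 8, 7 and 8 over 4900 bp. Ash1l exon 3 of 28, in the gene of a histone H3 lysine methyltransferase, had 4 in control and 10, 8 and 9 in the compound lists over 4300 bp. Arhgap5 exon 2 of 7, in the gene of a GTPase-activating protein, had 7, 8, 7 and 5 over 3200 bp.

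**Figure D2:**
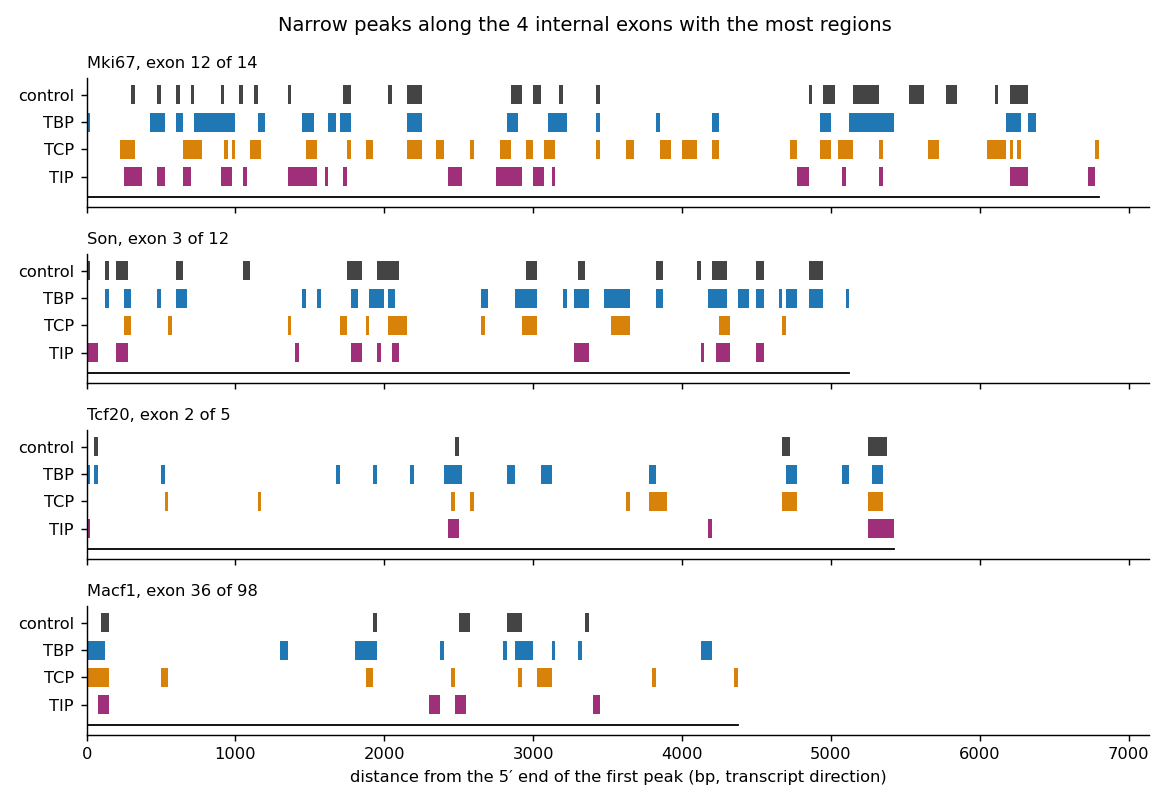
Position of each narrow peak (blocks, to scale) along the internal exons of Mki67, Son, Tcf20 and Macf1 with the most regions, in bp from the 5′ end of the first peak in transcript direction, with 1 row per list; the black line is the span of all peaks. The 22, 18, 28 and 17 peaks of Mki67 lie all along the 6800 bp, and few stretches carry a block in every row.

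Counted over whole genes, 1357 host genes had 3356 merged regions. Of these genes 690 had 1 region, 667 had more, and the 156 with at least 5 held 40.5% of all regions. Of the host genes, 307 had a peak of the class in each of the 4 lists, at the same site or not, and 515 in only 1 list. Mki67 led with 51 regions and had 24 peaks in control, 24 with TBP, 33 with TCP and 23 with TIP. Macf1 followed with 37 regions and 11, 19, 21 and 12 peaks in the same order. Son had 31 regions. Ranbp2 had 25 regions and 11, 11, 13 and 10 peaks. These 4 genes kept at least 10 peaks in the TIP list although it was the shortest. With every list cut to its 3034 best-scored peaks, Mki67 had 17 peaks in control, 15 with TBP, 26 with TCP and 23 with TIP, Macf1 7, 10, 12 and 12, Son 10, 13, 7 and 10, and Ranbp2 8, 7, 6 and 10. At that length TIP was the lowest list in none of the 4, and Mki67 and Ranbp2 stood above control in TIP instead of below it. Peaks tied in score at the cut were kept in the order of the deposited list, so score did not decide which of them stayed. TIP was not cut.

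Cenpf and Kmt2d had few TIP peaks. Cenpf, which encodes a large kinetochore protein of dividing cells, had 7 peaks in control, 11 with TBP, 21 with TCP and 2 with TIP. Exon 12 of 18 held 2, 5, 10 and 0 of them and exon 13 held 4, 6, 9 and 0, so no TIP peak lay in the exons that held most peaks of the other lists. Kmt2d, a histone H3 lysine 4 methyltransferase, had 9, 15, 14 and 2, and both TIP peaks lay in exon 35 of 55, where the other lists had 4, 5 and 6. At equal list length Cenpf had 5, 5, 12 and 2 and Kmt2d 6, 8, 4 and 2, a narrower range, with Kmt2d in TCP now below control. The other leading genes were Prrc2c (9, 10, 14 and 7, or 5, 3, 10 and 7 at equal length), Rnf213, which encodes a giant ubiquitin ligase (9, 14, 10 and 5), Eif3a, the largest subunit of translation initiation factor eIF3 (5, 7, 7 and 4), and Tcf20. The 18 regions of Eif3a were spread over 8 exons, and none was held by all 4 lists, as was also the case for Cenpf. The single libraries give no measure of the spread of these counts between cultures.

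**Figure D3:**
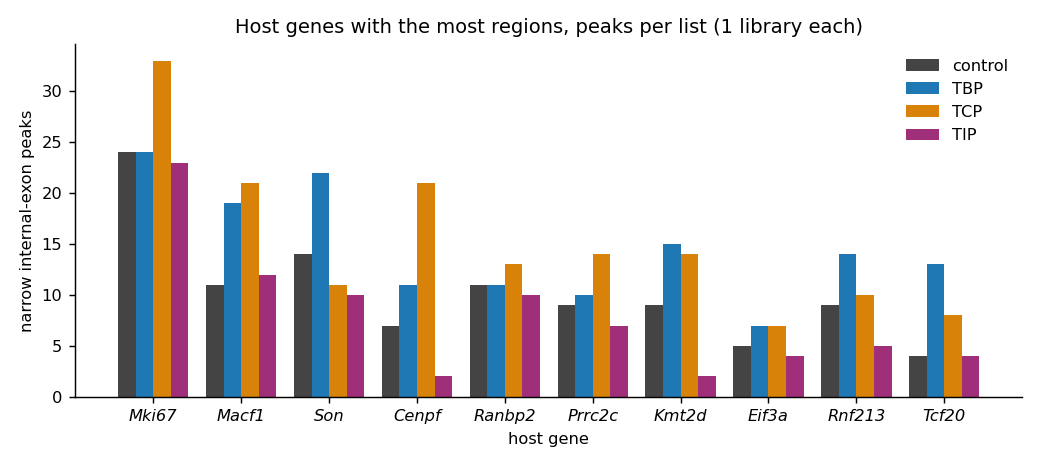
Number of narrow internal-exon peaks (y axis, from 0) in each list for the 10 host genes with the most merged regions (x axis), 1 library per bar. Mki67 has 24 control, 24 TBP, 33 TCP and 23 TIP peaks, while Cenpf and Kmt2d have 2 each in TIP.

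Some merged regions held a peak of every list. They can be chains of overlaps, so the best peaks of 2 lists in a region need not overlap each other. Of the 3356 regions, 288 (8.58%, 7.66 to 9.58) held a narrow internal-exon peak of all 4 lists. By mean position in the lists the first lay in Mki67 exon 12, at chromosome 7, 135700040 to 135700389. Its best peak ranked 121 in control, 5 with TBP, 79 with TCP and 7 with TIP. The best control and TCP peaks there abut without overlapping. The second lay in exon 2 of 3 of Mcl1, a short-lived anti-apoptotic protein of the Bcl-2 family, at chromosome 3, 95659786 to 95659935. It ranked 11 of 4432 in control, 9 of 6285 with TBP, 27 of 6981 with TCP and 17 with TIP. The Mcl1 peaks of control and TBP had the same 2 ends. The third lay in exon 4 of 15 of Ppp4r3a, a regulatory subunit of protein phosphatase 4 (chromosome 12, 101058591 to 101058840), with ranks 15, 14, 29 and 17. Its best TCP and TIP peaks did not overlap. With tied peaks placed at their mean, these 3 sites were within the upper 6% of every list. In TIP, Mcl1 and Ppp4r3a stood among 301 peaks tied at rank 17, so their place there is not exact.

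Next came exon 4 of 5 of Ythdf3, itself a cytoplasmic m6A reader (chromosome 3, 16204070 to 16204344), ranked 42 in control, 47 with TBP, 54 with TCP and 17 with TIP. Wapl, which releases cohesin from chromatin, was marked in exon 3 of 19 (chromosome 14, 34691853 to 34692127) with ranks 37, 91, 40 and 17. Its best TIP peak overlapped neither the control nor the TCP one. Nup153, a nucleoporin of the nuclear basket, was marked in exon 18 of 22 (chromosome 13, 46687252 to 46687476) with ranks 21, 38, 136 and 17. A second Nup153 region, in exon 16, ranked 13, 34, 33 and 399. Nup153 thus held 2 strong sites in different exons of 1 transcript.

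Further sites lay in Ddx24, an RNA helicase of the DEAD-box family (exon 3 of 9; ranks 59, 48, 184 and 17), Ranbp2 (exon 20; 178, 21, 161 and 17) and Usp34, a deubiquitinase (exon 15 of 80; 252, 46, 30 and 17). Incenp, a subunit of the chromosomal passenger complex, followed (exon 4 of 18; 101, 149, 154 and 17). Sav1, an adaptor of the Hippo kinases, ranked 105, 241, 118 and 17 in exon 2 of 5. Of these 11 sites, 10 stood at the shared rank 17 in TIP, so the TIP score does not order them.

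**Figure D4:**
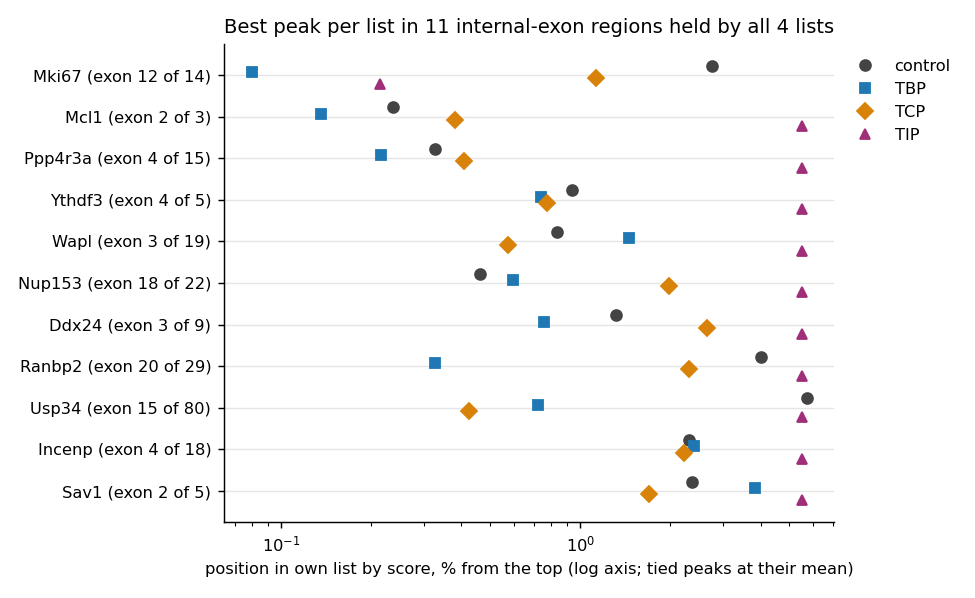
Position within its own list by score (x axis, percent from the top, log axis, tied peaks at their mean) of the best peak in 11 leading internal-exon regions held by all 4 lists (y axis), with 1 marker per list. All markers lie in the upper 6%, and 10 of the 11 TIP markers share 1 position because their scores are tied.

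Further peaks were among the 6 leading ones of the class in a list. A Mki67 peak in exon 12, at 135695615 to 135695914 of chromosome 7, ranked 13 in TBP, and its overlapping peaks ranked 69 in control, 590 in TCP and 1455 in TIP. Sp3, a zinc finger transcription factor, ranked 40 in control, 483 with TBP, 151 with TCP and 17 with TIP (exon 4 of 7, chromosome 2, 72970839 to 72970988). Kat6a, a histone acetyltransferase, had the highest-ranked TCP peak of the class, at rank 24 (exon 2 of 17, chromosome 8, 22862404 to 22862578). Its overlapping peaks ranked 1006 in control and 681 in TBP, and TIP had none. Hspa5, the endoplasmic reticulum chaperone BiP, ranked 35 in TCP, 145 in control and 578 in TIP in exon 6 of 9, without a TBP peak there. In TIP the leading peaks after Mki67 were, by width among the tied ones, in Hsp90ab1, Zfp106, Prrc2c, Birc6 and Phax. The Hsp90ab1 peak spans 445 bp, which is no multiple of 25 bp.

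Most regions were found in 1 list only: 2195 of 3356, or 65.4% (63.8 to 67.0). With peaks merged over gaps of up to 50 bp it was 54.9% (53.0 to 56.8). The regions of 1 list were 936 in TCP, 667 in TBP, 310 in control and 282 in TIP. Regions of exactly 2 lists numbered 540, most often TBP with TCP (229), and regions of 3 lists 333, most often control with TBP and TCP (180). TBP, TCP and TIP together without control had 68. All 4 counts of regions in 1 list follow the order of list length. When peaks of any class and width could count in the other lists, 2158 regions stayed in 1 list and 301 were in all 4. Regions were not merged over all peaks or for the other classes, so these counts are not read as a trait of this class.

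Recurrence fell with rank inside every list. Shares by rank were not computed over all peaks, so the fall is not read as a trait of this class. Of the control peaks among the 20% best-scored of their list (ties kept together), 95.4% (91.7 to 97.8) overlapped a peak of any class in at least 1 other list. The share was 43.4% (36.1 to 50.9) among the 20% worst-scored. In TBP it went from 95.4% to 30.5%, in TCP from 93.3% to 24.2% and in TIP from 93.7% to 51.2%. Overlap in all 3 other lists went from 61.5% to 0.549% in control, from 56.4% to 0.451% in TBP, from 48.7% to 0 of 335 peaks in TCP (exact interval up to 1.10%) and from 63.5% to 10.6% in TIP. Peaks near the score floor were thus seldom held by all 4 lists in control, TBP and TCP, whose intervals there overlapped. In TIP they were held by all 4 lists more often.

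**Figure D5:**
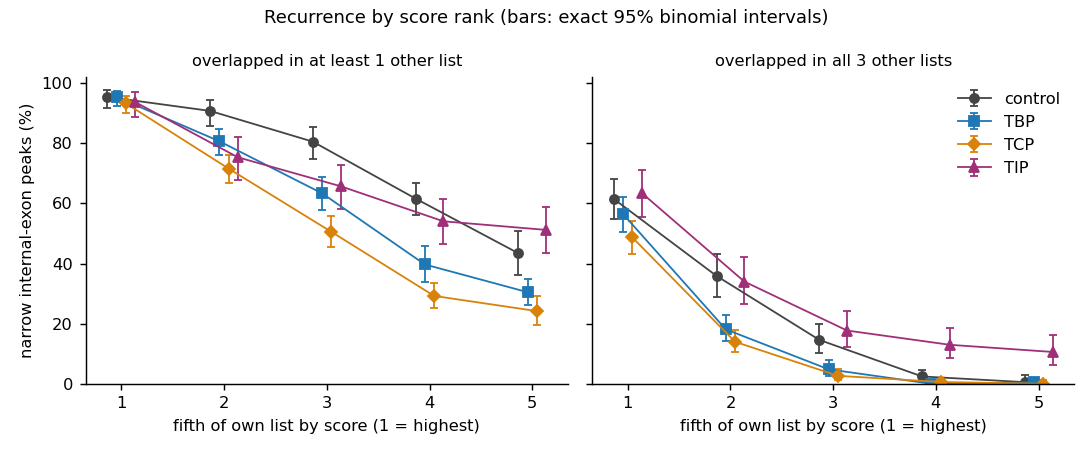
Share of narrow internal-exon peaks (y axis, percent) that overlap a peak in at least 1 other list (left) or in all 3 other lists (right), in 5 bins of their own list by score (x axis, 1 is the highest), with exact 95% binomial intervals. Shares in the highest bin lie between 93.3% and 95.4% on the left and fall to between 24.2% and 51.2% in the lowest.

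Internal-exon peaks ranked lower and recurred less than narrow peaks of last exons and 3′ UTRs, the other large classes. The share overlapped in at least 1 other list was 73.6% for control, 60.1% for TBP, 52.3% for TCP and 67.2% for TIP. For narrow peaks of last exons it was 81.4%, 68.0%, 63.2% and 80.8%, and for 3′ UTRs 77.5%, 63.7%, 60.7% and 79.4%. The mean difference was −10.0 points (SD 2.80) to last exons and −7.00 points (SD 4.08) to 3′ UTRs, lower in 4 of 4 lists each time. Each list's share depends on the other lists, so these 4 differences are not independent, which the SD and the test below leave out. On a scale from 0 (top of the list) to 100, internal-exon peaks stood at a mean of 51.9, which was 3.57 (SD 0.794) below last exons in score order and 2.64 (SD 0.960) below 3′ UTR peaks, again in 4 of 4 lists. Each of these 4 differences had a two-sided exact sign-flip permutation p of 0.125, the smallest that 4 lists allow, and 0.188 after Benjamini-Hochberg adjustment over 6 tests, so none passed 0.05. Median width was 50 bp in every class tested. Narrow 5′ UTR peaks, a smaller class, were not tested. They stood at means of 58.1, 52.1, 53.7 and 53.8 in control, TBP, TCP and TIP. Internal-exon peaks stood at 52.4, 51.8, 52.2 and 51.2. Of the 5′ UTR peaks 58.0%, 53.9%, 48.2% and 72.8% overlapped a peak of another list, lower than internal-exon peaks except in TIP. Low rank and low recurrence were thus not particular to internal exons. The lower scores and the lower recurrence of internal-exon peaks go together, and their part in one another was not tested.

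The design sets each compound against untreated cells. A peak is called gained here if no control peak of any class overlaps it by at least 1 bp on its strand, and a control peak is called lost if no peak of the compound's list overlaps it. In TBP 1037 of 1645 narrow internal-exon peaks were gained, 63.0% (60.7 to 65.4), beside 60.0% of all TBP peaks. Of the 1138 control peaks 513 were lost, 45.1% (42.2 to 48.0), beside 42.7% of all control peaks. The gained share was a little above that of all peaks, which lay just outside its interval. The lost share of all control peaks lay inside the interval, so no difference is read from it. The gained peak with the highest rank lay in Ash1l exon 3 (chromosome 3, 88981492 to 88981566), at rank 56 in TBP. The same site ranked 86 in TCP and 17 in TIP, and the nearest control peak lay 225 bp away in a gene that had 7 control peaks of the class. Foxo3, a forkhead transcription factor of the stress response, was next with a peak in exon 3 of 4 at rank 60 (chromosome 10, 42196563 to 42196712). Its site ranked 91 in TCP and 399 in TIP, and control had 0 exon peaks in the gene. The other leading gained peaks, in Macf1 exon 57 and Mki67 exon 12, lay 25 and 75 bp from a control peak.

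Among the leading control peaks lost in TBP was one of Hsp90ab1, a cytosolic chaperone, in exon 6 of 11 (rank 98), with the nearest TBP peak 1303 bp away, while its exon 9 held overlapping peaks of all 4 lists (ranks 1448, 1797, 1642 and 17). Eif3a exon 19 of 22 (rank 136) had a TBP peak 75 bp away, and Hspa5 exon 6 (rank 145) one 441 bp away. Gaps to neighbouring peaks and shared exons were counted for this class only, with each compound. No share over all peaks stands beside them. Of the 1037 gained TBP peaks, 103 (9.93%) abutted a control peak with no base between, 215 lay within 100 bp and 469 (45.2%) had a control peak in the same exon. Of the 513 lost, 90 (17.5%) abutted a TBP peak and 268 (52.2%) had a TBP peak in the same exon. At the level of exons, 538 of the 785 exons with a control peak also had a TBP peak of the class, 68.5%, and these were 50.4% of the TBP exons.

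After TCP 1355 of 1942 peaks were gained, 69.8% (67.7 to 71.8), beside 64.6% of all TCP peaks, and 542 of the 1138 control peaks were lost, 47.6% (44.7 to 50.6), beside 44.3%. Both shares stood above those of all peaks, which lay outside the intervals, though narrowly for the lost share. The leading gained TCP peak was in Mki67 exon 12, at chromosome 7, 135700090 to 135700114 (rank 79). It abuts the control peak at 135700115 to 135700139, which was itself called lost in TCP, and 1 TBP peak at rank 5 overlaps both. Ash1l exon 3 (rank 86) and Foxo3 exon 3 (rank 91) followed. Baz1b, a subunit of chromatin remodelling complexes, was gained in exon 7 of 19 at rank 106, with the nearest control peak 325 bp away. The leading lost control peaks included Mki67 exon 12 at 135695715 to 135695889 (rank 69), which abutted a TCP peak. Hsp90ab1 exon 6 had its nearest TCP peak 1138 bp away. Of the gained TCP peaks 118 (8.71%) abutted a control peak, and of the lost control peaks 104 (19.2%) abutted a TCP peak. Of the 785 control exons, 546 (69.6%) also had a TCP peak of the class, and these were 43.5% of the TCP exons.

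After TIP 464 of 839 peaks were gained, 55.3% (51.9 to 58.7), beside 48.2% of all TIP peaks. Of the 1138 control peaks 756 were lost, 66.4% (63.6 to 69.2), beside 64.7%. The gained share stood above that of all peaks, which lay outside its interval. The lost share of all control peaks lay inside the interval, so no difference is read from it. At equal list length the gained shares were 58.6% for TIP, 52.7% for TCP and 47.6% for TBP, so TIP had the highest share instead of the lowest. TIP is the list left uncut there. Gained shares over all peaks were not computed at that length, so the change of order is not read as a result about this class. The leading gained TIP peaks, all at the shared rank 17 and taken by width, were in Zfp106 exon 5 of 22 (a zinc finger protein that binds RNA), Ash1l exon 3, Ywhag exon 2 of 3 (a 14-3-3 protein) and Baz1b exon 7. The Zfp106 peak lay 100 bp from a control peak and the Ywhag peak abutted one. The leading lost control peaks included those of Mki67 and Hsp90ab1 named above and that of Slco4a1, an organic anion transporter. The Mki67 peak abutted a TIP peak, while the nearest TIP peak to Hsp90ab1 was 1278 bp away. The Slco4a1 peak lay in exon 2 of 12 (chromosome 2, 180464567 to 180464691) and ranked 107 in control, 71 in TBP and 74 in TCP, and the nearest TIP peak lay 9527 bp away. Of the 785 control exons 366, or 46.6%, had a TIP peak of the class, which was 59.5% of the TIP exons. The 3 comparisons share the control list, so a peak that only control lacks is gained in all of them.

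Over the merged regions, with peaks of any class counted, 69 of 3356 (2.06%) held a peak of each compound and none of control. By mean position Ash1l exon 3 led these, and Foxo3 was the fourth. Between them, named here after their values were seen, were Ppm1g, a protein phosphatase (exon 5 of 10; ranks 289 in TBP, 376 in TCP and 17 in TIP), and Nufip2, an RNA-binding partner of FMRP (exon 2 of 4; 225, 511 and 17). Control, TBP and TCP without TIP held 186 regions (5.54%), led by Slco4a1. Next, also named after its values were seen, was Rnf213 exon 20 of 67 (chromosome 11, 119430443 to 119430567), at rank 273 in control, 157 in TBP and 146 in TCP. The TIP list had 5 peaks of the class in Rnf213, 1 of them in exon 20, but none at this site. Control alone held 300 regions (8.94%), among them the Hsp90ab1 and Eif3a peaks above. These sets of regions were not counted over all peaks of the series.

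In every comparison the peaks that differed ranked lower than those that overlapped. The median position of gained peaks, in percent from the top, was 71.4 in TBP against 25.8 for the TBP peaks that overlapped control. It was 63.2 against 26.3 in TCP and 62.0 against 34.9 in TIP. Lost control peaks stood at a median of 70.2 with each compound, and kept ones at 37.0 with TBP and TCP and 23.6 with TIP. These medians were not computed over all peaks, so they are not read as a trait of this class.

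The compounds had the same dose and time, so the control peaks each list kept can be compared over the same 1138 peaks, in 3 pairs. TBP kept 54.9%, TCP 52.4% and TIP 33.6%. TCP minus TBP was −2.55 points (95% interval over the same peaks, normal approximation, −5.94 to 0.845). TIP kept less than either, with a gap of −21.4 points (−24.6 to −18.1) to TBP and one of −18.8 points (−22.0 to −15.6) to TCP. With every list cut to its 3034 best-scored peaks, 736 control peaks of the class remained. TBP then kept 55.4%, TCP 53.1% and TIP 47.7%. TIP minus TBP was −7.74 points (−11.9 to −3.56), and TIP minus TCP was −5.43 points (−9.37 to −1.50). Over all classes at this length they were −8.40 and −5.27 points, so the class did not stand apart there. Of the 1138 control peaks, 300 (26.4%, 23.8 to 29.0) overlapped no compound peak and 242 (21.3%, 18.9 to 23.8) overlapped a peak of each compound. These shares were not computed over all control peaks, so they are not read as a trait of this class.

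Host genes were then described by 12 lists of genes. As background, 1350 of the 2207 genes with an exon peak of any kind (61.2%) had a narrow internal-exon peak. They had a median of 1 region, and 305 of them (22.6%) had such a peak in each of the 4 lists, at the same site or not. Genes said below to be marked in all 4 lists are counted in this way. A control peak was found in 664 of the 1350 hosts (49.2%), a TBP peak in 862 (63.9%), a TCP peak in 982 (72.7%) and a TIP peak in 514 (38.1%). These are counts beside a background, with no test of the lists.

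Of the m6A writers, erasers and readers, 9 of 13 genes with an exon peak were hosts, and 6 of the 9 were marked in all 4 lists. The 3 cytoplasmic readers led. Ythdf3 had 5 peaks in control, 3 with TBP, 6 with TCP and 3 with TIP, Ythdf2 3, 6, 6 and 3, and Ythdf1 1, 2, 4 and 2, each within 1 exon. Virma, the scaffold of the methyltransferase complex, had 2, 3, 4 and 2, also in 1 exon. Of the histone methyltransferases and demethylases 17 of 19 were hosts, with 92 regions, and 9 of the 17 were marked in all 4 lists. Beside Kmt2d they included Ash1l (7, 13, 10 and 10 peaks), Kmt2a (5, 5, 8 and 2) and Setd2, the main methyltransferase of histone H3 lysine 36 (5, 8, 3 and 4). Chromatin remodellers and acetyltransferases were hosts in 19 of 23 cases, 8 of them in all 4 lists. The remodelling helicase Atrx had 2, 7, 4 and 4 peaks, and Bptf, a subunit of the NURF complex, 5, 6, 5 and 3.

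Mitosis and centrosome genes were hosts in 19 of 21 cases, with 131 regions, of which Mki67 held 51 and Cenpf 25. Aspm, a spindle pole protein, had 1 peak in control, 5 with TBP, 8 with TCP and 2 with TIP. Knl1, a kinetochore scaffold, had 1, 5, 3 and 1. DNA repair and replication genes were hosts in 16 of 17 cases. Of the 16, 8 had a control peak, 11 a TBP peak, 14 a TCP peak and 4 a TIP peak, the same order as over all hosts, and the 4 in TIP were marked in all 4 lists. Rif1, a regulator of replication timing and repair, had 3, 6, 5 and 1 peaks, all in 1 exon. Msh6, of DNA mismatch repair, had 2, 5, 3 and 3, and Brca2, of homologous recombination, 2, 3, 4 and 0.

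Splicing factors and RNA helicases were hosts in 17 of 22 cases, led by Son, Srrm2 (10, 8, 8 and 8) and Ddx21, a nucleolar helicase (1, 1, 5 and 3 over 5 exons). Ubiquitin ligases and deubiquitinases were hosts in 14 of 16, 8 of them in all 4 lists, among them Rnf213, Birc6 (6, 6, 9 and 3), Huwe1 (3, 3, 7 and 1) and Usp34 (2, 6, 5 and 3). Translation factors and scaffolds were hosts in 18 of 19, 10 of them in all 4 lists. Eif4g1, the scaffold of the cap-binding complex, had 4, 3, 4 and 3 peaks over 9 exons. Dicer1, which processes microRNA precursors, had 0 in control, 6 with TBP, 4 with TCP and 1 with TIP. Cytoskeleton and large scaffold genes were hosts in 17 of 18, with Macf1 first and Akap13, an anchoring protein of protein kinase A, at 1, 5, 4 and 1.

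Of the 30 macrophage identity and pattern recognition genes 13 had an exon peak, and 5 of these were hosts, beside 61.2% of all genes with an exon peak. The chemokine receptor Cx3cr1 had 1 peak in control, 4 with TBP, 5 with TCP and 1 with TIP, and Csf1r, the receptor through which colony-stimulating factor 1 acts, 0, 1, 3 and 0. The inflammasome sensor Nlrp3 had 2, 2, 1 and 1. Of the 36 NF-κB, MAP kinase and cytokine genes 4 had an exon peak and 2 were hosts, Jak1 with 0, 1, 0 and 1 peaks and Irak1 with 1 in TCP. Cytosolic ribosomal protein genes were hosts in 10 of 13 cases, but with 15 regions in all. A control peak was found in 7 of the 10, a TBP peak in 3, a TCP peak in 2 and a TIP peak in 4, and none of the 10 was marked in all 4 lists.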

How the data were processed

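The series has 8 samples: 4 immunoprecipitated libraries, whose peak lists were analysed, and 4 inputs, not analysed here. The deposited lists, 1 per library, give each peak its position, strand, score, annotation and nearest gene. That score, deposited by the authors, has no stated scale and was used for ranks only. The submitters' processing notes name ChIPseeker 1.26, HISAT2 2.1.0 and the builds GRCm38 and mm10, among others, with no role or order. Which program called peaks, at what threshold and with what role for the inputs is not given in the sources used here.

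Members were found from the annotation text and width. Host gene identifiers were matched to RefSeq symbols (GRCm38.p6); 29 peaks of 7 hosts did not match and kept their identifier. Peaks were overlapped on the same strand by at least 1 bp and merged into regions where they overlapped, in Python 3.11.15 with pandas 2.3.3 and scipy 1.17.1. The overlap and merging steps recovered every planted case in tests on simulated peaks. Classes of peaks were compared by an exact sign-flip permutation over the 4 lists. Alternatives were a maximum width of 200 bp or none, equal list length, peaks at or above the median score, 50% reciprocal overlap, merging over 50 bp gaps, other position counts and other host assignments. At equal list length, peaks tied in score at the cut were kept in list order.

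Named items follow a rule: the 6 highest-ranked peaks per list, the 12 leading regions of all 4 lists, the 10 hosts with the most regions, the 4 leading gained and lost peaks per compound, and up to 4 genes per gene list; unnamed genes and pseudogenes were passed over, and some named items are not reported here. The 12 gene lists hold 368 genes, all matched to RefSeq. The members, gene lists and rules were chosen with earlier results of these data known. The gaps to neighbouring peaks, the exon spans and the Hsp90ab1 exon 9 values beside its lost peak were added after values were seen.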

Additional observations from a re-analysis of the deposited data

Results flagged for a closer look

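TBP and TCP stood above control and TIP below it in several counts. With 1 library per condition none of these differences was tested. The number of narrow internal-exon peaks relative to control was 1.45 in TBP, 1.71 in TCP and 0.737 in TIP. Host genes stood at 1.298, 1.483 and 0.7751. Cenpf peaks stood at 1.57, 3 and 0.286, from 7 control peaks. For Kmt2d the ratios were 1.67, 1.56 and 0.222, from 9. For Prrc2c they were 1.11, 1.56 and 0.778, for Eif3a 1.40, 1.40 and 0.800, and for Rnf213 1.56, 1.11 and 0.556. List length moves in the same order, with 1.42, 1.58 and 0.685 for all peaks. With each list cut to 3034 peaks, narrow internal-exon peaks stood at 1.02, 1.09 and 1.14 and host genes at 0.991, 1.05 and 1.12, so TIP was no longer below control in either. Prrc2c then stood at 0.6, 2 and 1.40, Kmt2d at 1.33, 0.667 and 0.333, Eif3a at 0.800, 1.20 and 0.800, Cenpf at 1, 2.40 and 0.400, and Rnf213 at 1.14, 1 and 0.714. At that length none of these 7 results had both TBP and TCP above control and TIP below it.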

How the results depend on the processing

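Of 222 recomputed values, 142 stayed close to the reported one (a count within 1.5 times, a share within its 95% interval), 70 moved and 10, all ratios to control at equal list length, changed direction. Differences between classes were judged by direction only and are among the 142. So are TIP's own counts, shares of the list and exon positions at equal list length, which could not move because TIP is left uncut. Of the 222, 87 were chosen after seeing the data: those without peaks whose width is no multiple of 25 bp, of which none of 6 moved, ratios, host genes and leading genes at equal length, and the share of regions in 1 list. A maximum width of 200 bp, peaks on the host strand only and overlap with narrow internal-exon peaks only moved no value by that measure. Merging over 50 bp gaps left 2808 regions, 1542 of them (54.9%) of 1 list and 319 of all 4. Without a maximum width the class made up 29.3% of TCP. With lists cut to 3034 peaks, members were 736 for control, 754 for TBP, 801 for TCP and 839 for TIP, their share 24.3%, 24.9%, 26.4% and 27.7%, host genes 459 in TBP and 488 in TCP, merged regions 1655 and regions of 1 list 932. Members stood at 1.09 times control in TCP and 1.14 in TIP, where TIP turned from below control to above, and host genes at 0.991 in TBP and 1.12 in TIP, both turned. Among genes the turned ratios were Prrc2c 0.6 in TBP and 1.40 in TIP, Eif3a 0.800 in TBP, Kmt2d 0.667 in TCP, Mki67 1.35 in TIP, and Ranbp2 0.750 in TCP and 1.25 in TIP. Gained peaks were then 47.6% in TBP, 52.7% in TCP and 58.6% in TIP, so TIP went from the lowest to the highest, and lost ones 44.6%, 46.9% and 52.3%. Among peaks at or above the median score there were 1539 regions, 881 of 1 list and 169 of all 4. Gained peaks were then 58.0% in TBP, 65.2% in TCP and 50.2% in TIP, and lost ones 32.7%, 35.1% and 60.9%. With overlap of at least 50% of both peaks, 74.8%, 81.0% and 71.4% were gained and 63.4%, 67.4% and 78.8% lost. Gained shares over all peaks were not computed at equal length, above the median score or with 50% overlap. With each host gene once, the second exon held 26.4% in control and 25.3% in TBP, and the exon before the last 14.1%, 14.6%, 13.1% and 11.6% in control, TBP, TCP and TIP. An even spread would give 15.7%, 15.2%, 15.0% and 14.1%, inside all 4 intervals. In transcripts with at least 10 exons the second exon held 15.4%, 13.3%, 13.1% and 11.8% in control, TBP, TCP and TIP, the exon before the last 3.76%, 4.85%, 4.81% and 4.72% (even spread 6.22%, 6.08%, 6.13% and 6.14%; inside the interval in TBP and TIP), and the median relative position in TBP was 0.409. By the nearest-gene column Ranbp2 had 2 regions and Tcf20 had 0. Apart from fewer peaks or exons entering, the cause of these shifts was not tested. No paired analysis was possible because each condition has 1 library, so leaving out a replicate was not possible either. Depth cannot be read from the lists.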
